A study of Mus musculus with 18 samples.

Results

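RNA from axons was compared with RNA from cell bodies and dendrites (the somatodendritic compartment) in cultured mouse motoneurons that carried an empty lentiviral vector. The groups were the 3 axonal empty vector arrays and the 3 somatodendritic empty vector arrays, picked by their labels out of 18 arrays in the series. The cells came from spinal cords of E12.5 embryos, freed of dorsal root ganglia and meninges, and were enriched by panning with an antibody to p75, a neurotrophin receptor. After infection with a virus that encoded no hairpin, they were seeded on 1 side of a microfluidic chamber and kept for 7 days while axons grew through its microchannels. BDNF, a neurotrophin, was present at 20 ng/ml on the axonal side alone, and CNTF, a survival factor, at 5 ng/ml on both sides. Compartment and BDNF therefore cannot be told apart. Total RNA of each side went through 2 rounds of linear amplification and was hybridised to Affymetrix mouse whole-genome arrays. A second pair of groups, 3 axonal and 3 somatodendritic arrays from untreated wild-type cultures, is set beside the empty vector pair, and the 6 Smn knockdown arrays entered only the estimate of spread. Whether the arrays within a group stem from separate cultures is not stated in the labels, so p-values measure the spread between arrays, which may be technical.

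Axons hold a selected part of a neuron's mRNAs. These travel along microtubules in granules with RNA-binding proteins and can be translated far from the cell body, for instance at growth cones or after injury. mRNAs of ribosomal proteins, of nuclear-encoded mitochondrial proteins and of the cytoskeleton, such as Actb, are known from axons of several neuron types, whereas many mRNAs of the secretory pathway and of postsynaptic proteins are best known from cell bodies and dendrites.

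The axonal arrays differed from the somatodendritic ones in quality as well as in content. Of 18191 genes, 8250, 7061 and 9956 exceeded the array's background level on axonal empty vector replicates 1, 2 and 3, against 11326, 10714 and 10373 on the somatodendritic arrays. Background was the 95th percentile of 145 probe sets of genes such as olfactory receptors, which spinal cord does not use. The axonal arrays correlated with each other at 0.78 to 0.88 across genes, and the somatodendritic arrays at 0.995 to 0.997. Axonal replicate 2 correlated least with the somatodendritic mean, at 0.71, against 0.853 for replicate 1 and 0.889 for replicate 3. The mean of the spiked-in controls BioC and BioD was 13.27, 14.19 and 12.75 on the axonal arrays, against 10.41, 10.54 and 10.39 on the somatodendritic arrays, on the log2 scale. The 3' minus 5' difference of Gapdh, a sign of how far transcripts reach, was 3.06, 1.44 and 3.91 on the axonal arrays, against 3.68, 3.53 and 3.60 on the somatodendritic arrays. The part of these differences in the results was not tested.

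Because the authors brought the axonal and the somatodendritic arrays to different distributions, every difference was measured on 2 scales. The first is the deposited log2 scale, on which the SD over probe sets was 1.87 on axonal and 2.26 on somatodendritic arrays. The second is the common rank scale, on which all 18 arrays share 1 distribution and only the rank of a gene within its array counts. Over all genes the median log2 difference, axonal minus somatodendritic, was 0.17 on the deposited and 0.21 on the common rank scale. Among the genes above background on all somatodendritic arrays it was -0.71 on the deposited and -0.14 on the common rank scale. These genes were picked on the somatodendritic arrays alone, and 4848 of them were not above background on all axonal arrays. Such a choice by itself lowers both medians, so they do not describe bright genes in general. In what follows a gene rose or fell in axons when limma's adjusted p was under 0.05 on both scales, in the same direction, and all 3 arrays of the higher group exceeded background. Log2 differences are on the common rank scale, with limma's standard error (SE), levels per array are deposited log2 values, and folds are on the deposited scale.

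By this rule 795 genes rose in axons (4.37% of all genes) and 1017 fell (5.59%). A rise was open only to the 5594 genes above background on all 3 axonal arrays. A fall was open only to the 10221 genes above background on all 3 somatodendritic arrays. Lists of bright genes have more members open to a call, so a list share above that of all genes is not by itself an excess. On the deposited scale alone, 4320 genes were higher in axons (23.7%) and 3312 lower (18.2%). On the common rank scale alone, 2309 were higher (12.7%) and 1153 lower (6.34%), and with each array centred and scaled 2222 were higher and 1190 lower. All 3 axonal arrays lay beyond all 3 somatodendritic arrays on both scales for 771 of the rises and 999 of the falls. Passing the threshold on both scales makes this likely in advance, so it adds no support to the calls. For 860 of the falls the axonal group was not above background on all its arrays, so that the size is only a lower bound, and the same held for the somatodendritic group in 192 of the rises. In 457 of the rises the axonal mean lay within 1 log2 unit of background. The counts changed when 1 array was left out. Without axonal replicates 1, 2 and 3 in turn there were 856, 461 and 1143 rises and 1065, 646 and 1348 falls. Without somatodendritic replicates 1, 2 and 3 in turn there were 327, 397 and 296 rises and 407, 478 and 368 falls. The counts thus dropped whichever somatodendritic array was left out. With only the 6 empty vector arrays in the fit there were 245 rises and 657 falls.

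The clearest group among the rises was that of cytosolic ribosomal proteins, the protein subunits of the ribosomes that translate nuclear-encoded mRNAs. Of 44 measured members (80 were listed, and the others were not analysed here), 30 rose in axons, which is 68.2% beside 4.37% of all genes, and 1 fell. Their median log2 difference was 1.11 on the common rank scale and 0.76 on the deposited scale, beside 0.21 and 0.17 for all genes. The count of rises lay between 20 and 30 under the alternatives that changed the probe set, the array weights or the arrays used, and was 0 with the replicate block over the 6 empty vector arrays, in which no gene of any kind was called by the rule.

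**Figure D1:**
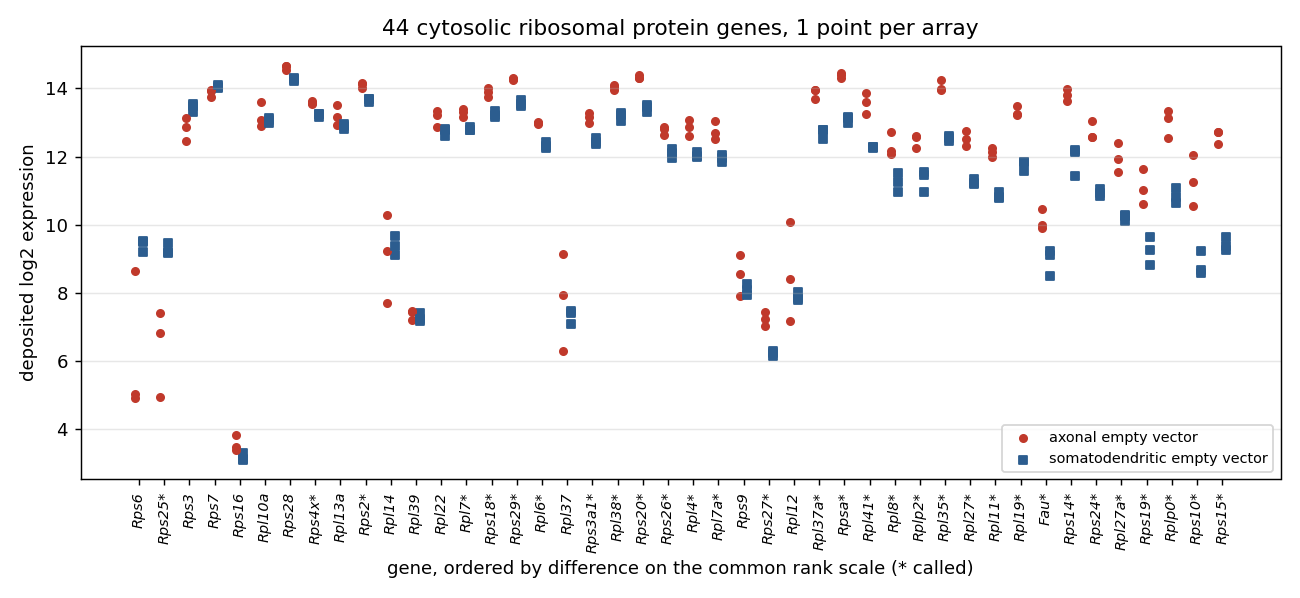
Deposited log2 expression (vertical axis) of the 44 measured cytosolic ribosomal protein genes on each empty vector array, axonal arrays as red circles and somatodendritic arrays as blue squares. Genes are ordered along the horizontal axis by their difference on the common rank scale, and an asterisk marks the 30 that rose and Rps25, which fell. Rps15, at the right end, had the largest difference, 3.77.

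Rps15, a protein of the small subunit, stood at 12.37, 12.71 and 12.71 on the axonal arrays, against 9.63, 9.26 and 9.37 on the somatodendritic arrays. No axonal array overlapped a somatodendritic one, and the difference was 3.77 (SE 0.21, limma adjusted p = 3.1e-07), or 9.05-fold. Its second probe set differed by 3.17. Rpl27a, of the large subunit, read 11.92, 11.56 and 12.39 in axons, against 10.29, 10.12 and 10.25 in the somatodendritic compartment, 3.34-fold higher (2.44, SE 0.19, adjusted p = 7.69e-06). Rplp0, which forms the base of the ribosomal stalk, read 12.53, 13.35 and 13.14 in axons, against 11.08, 10.64 and 10.83, and was 4.47-fold higher (2.69, SE 0.24, adjusted p = 2.94e-05). Rpl11, which also binds the p53 regulator Mdm2, read 12.13, 11.98 and 12.25 in axons, against 10.95, 10.80 and 10.82, and was 2.40-fold higher (1.92, SE 0.17, adjusted p = 2.94e-05). All 3 genes, like Rps15, had separate groups of arrays.

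Rps10 read 10.56, 11.24 and 12.05 in axons, against 9.22, 8.58 and 8.67 in the somatodendritic compartment, and was 5.51-fold higher. It has 6 probe sets, of which 5 differed by 1.70 to 3.30 and 1 by -0.33. Rps19, whose human counterpart is mutated in Diamond-Blackfan anaemia, read 10.62, 11.62 and 11.02 in axons, against 9.64, 9.25 and 8.81, and was 3.61-fold higher. Rpsa, a ribosomal protein also known as a laminin receptor, read 14.41, 14.30 and 14.46 in axons, against 13.15, 13.00 and 13.13, and was 2.46-fold higher. Rps28 was near the top of the arrays' range in both compartments, with 14.55, 14.67 and 14.67 in axons, against 14.31, 14.23 and 14.29, and did not pass on the common rank scale (0.40, limma adjusted p = 0.0752). Rps20 rose with its brightest probe set, but of its 4 probe sets 2 differed by 1.01 and 1.18 and 2 by -0.31 and -0.39.

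Rps25, a small subunit protein needed for some viral internal ribosome entry, went the other way, at 6.81, 7.41 and 4.94 in axons, against 9.19, 9.46 and 9.18 in the somatodendritic compartment. Only 1 of its 3 axonal arrays exceeded background, and it was at least 5.20-fold lower (-2.32, SE 0.77, limma adjusted p = 0.0478). In wild-type cultures its difference was 0.55 and was not called, and the difference between the cultures was not called either. Because the ribosomal protein genes have many processed pseudogenes, probe sets of this family can also read near-identical copies.

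Vertebrate ribosomal protein mRNAs belong to the TOP mRNAs, which begin with a run of pyrimidines next to the cap and whose translation follows mTOR signalling. The sequence around the start is shown for part of the genes just described, so that the pyrimidine stretch can be seen or missed. It runs from 10 bases before to 20 after the first base of the gene in RefSeq (build GRCm38.p6). Capitals mark CTTTC or CTTTT, the only motifs searched, which may overlap each other. Rps19, Rpsa and Rps28, which are not shown, held neither motif.
Rpl27a, chr7:109519185-109519214, plus strand: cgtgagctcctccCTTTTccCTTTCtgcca
Rps10, chr17:27635225-27635254, minus strand: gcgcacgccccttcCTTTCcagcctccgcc
Rpl11, chr4:136053374-136053403, minus strand: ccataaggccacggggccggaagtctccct
Rplp0, chr5:115559457-115559486, plus strand: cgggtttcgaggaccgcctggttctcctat
Rps15, chr10:80292421-80292450, plus strand: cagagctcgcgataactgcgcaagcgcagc
Rps25, chr9:44407704-44407733, plus strand: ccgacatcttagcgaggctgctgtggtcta
Of the 39 ribosomal protein genes with an entry in the RefSeq table, 12 held a motif on the gene's strand (30.8%) and 3 on the opposite strand (7.69%). Of the 25 with an entry among those that rose, 9 held it (36.0%). Among all 14450 measured genes with an entry, 816 held it (5.65%) and 706 held it on the opposite strand (4.89%). The share was 6.96% of 618 rises of any kind and 5.09% of 845 falls. A match describes these letters at the RefSeq start and says nothing of where transcripts began in these cells.

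Genes of the respiratory chain and ATP synthase, which make ATP in mitochondria, gave fewer calls. Of 74 measured members 10 rose (13.5%, beside 4.37% of all genes) and 3 fell (4.05%, beside 5.59%). On all 3 axonal arrays 66 of the 74 were above background, against 5594 of 18191 genes. Their median was 0.45 on the common rank scale and 0.08 on the deposited scale. Ndufa7, a complex I subunit, read 10.73, 11.00 and 10.99 in axons, against 9.77, 9.46 and 9.56 in the somatodendritic compartment, 2.48-fold higher (2.13, SE 0.22, limma adjusted p = 5.94e-05). Atp5o, which links the stalk of ATP synthase to its catalytic head, was 2.38-fold higher (2.11, SE 0.23), and Ndufa2, also of complex I, 2.14-fold higher (1.66, SE 0.19). Neither overlapped between the compartments. ND5, a complex I subunit encoded in mitochondrial DNA and transcribed inside mitochondria, read 14.18, 14.33 and 14.42 in axons, against 13.28, 12.96 and 13.39, and was 2.14-fold higher (1.24, SE 0.18, adjusted p = 0.00086). Uqcrb, of complex III, was bright in both compartments, at 14.74, 14.27 and 14.49, against 14.54, 14.60 and 14.54, and its arrays overlapped. Without axonal replicate 2, 15 members rose, and 6 rose without axonal replicate 1, somatodendritic replicate 2 or somatodendritic replicate 3. The list's mean percentile rank was 92.8, 88.0 and 92.9 on the axonal arrays, against 90.8, 89.8 and 89.7. With each array centred and scaled, 53 of the 74 were higher in axons and 1 lower.

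Mitochondrial ribosomal proteins, which translate the mRNAs of mitochondrial DNA, gave 6 rises and 6 falls of 75 (8.0% each, beside 4.37% and 5.59% of all genes), and the balance turned with the scale. On the common rank scale 16 were higher and 6 lower (median 0.28), on the deposited scale 6 higher and 18 lower (median -0.33), and with each array centred and scaled 15 higher and 4 lower. The falls numbered 10 without axonal replicate 3, 4 without axonal replicate 1, 3 without axonal or somatodendritic replicate 2, and 2 and 1 without somatodendritic replicates 1 and 3. Mrpl52 was 2.60-fold higher (2.20, SE 0.24) and Mrps24 2.44-fold higher (2.14, SE 0.20), with no overlap between the arrays of the compartments. Mrpl54 was at least 2.07-fold higher, as no somatodendritic array exceeded background. Among 13 glycolytic enzymes 1 rose and 1 fell (7.69% each), and both are aldolases. Aldoa read 11.23, 10.63 and 11.68 in axons, against 10.32, 10.14 and 10.21, and was 1.94-fold higher (1.75, SE 0.22, limma adjusted p = 0.000253). Aldoc, the isoform of brain and a known marker of astrocytes, read 10.43, 6.07 and 7.57, against 12.37, 12.04 and 12.21, and was at least 14.5-fold lower (-3.67, SE 0.87, adjusted p = 0.0134). Its 3 axonal values spread over more than 4 log2 units, and a second probe set of Aldoc differed by -0.05.

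Translation factors moved with the scale. Of 45 initiation and elongation factors 0 rose by the rule (8 were higher on the common rank scale and 1 on the deposited scale) and 3 fell, namely Eif4a2, Eif1ax and Eif3e, which is 6.67% beside 5.59% of all genes. With each array centred and scaled 17 of the 45 were higher and 1 lower, with a median of 1.16, and Eif3e read 1.23 higher. The other probe sets of Eif3e differed by -2.42, -0.25 and 1.19. Eif4a2, an RNA helicase of the cap-binding complex, read 7.32, 7.97 and 8.63 in axons, against 11.44, 11.29 and 11.37, and was 10.5-fold lower (-2.60, SE 0.45, limma adjusted p = 0.00285). Eef2, the elongation factor that moves the ribosome along and itself a TOP mRNA, read 10.88, 9.75 and 11.05, against 9.74, 9.63 and 9.54. Its groups did not overlap, and it was higher on the common rank scale (1.80, adjusted p = 0.00355) but missed the threshold on the deposited scale (0.93, adjusted p = 0.0522). Of 31 proteasome subunits 1 rose (3.23%) and 3 fell (9.68%), but 11 were higher and 3 lower with each array centred and scaled (median 0.91). Psmb7, which carries the trypsin-like activity of the core particle, read 6.26, 5.75 and 6.60 in axons, against 10.95, 10.63 and 10.85, and was at least 15.7-fold lower (-4.12, SE 0.49, adjusted p = 0.000176).

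Some mRNAs that earlier studies had found in axons rose. Of 48 measured members 6 rose, a share above the 4.37% of all genes, and 2 fell (4.17%, beside 5.59% of all genes), with a median of -0.05 beside 0.21 for all genes. With each array centred and scaled 23 were higher and 0 lower, with a median of 1.17 beside 0.17 for all genes. Those that rose were Actb, Cox4i1, Atp5g1, Atf4, Tmsb10 and Ybx1, and those that fell were Cdc42 and Prdx2, both of which read higher in axons (1.25 and 1.19) with each array centred and scaled. Actb, whose transport to growth cones by Zbp1 is the best studied case, read 13.14, 13.26 and 13.23 in axons, against 12.54, 12.45 and 12.37, and was 1.69-fold higher (1.03, SE 0.22, limma adjusted p = 0.00903). Tmsb10, which binds free actin, was 1.55-fold higher (0.68, SE 0.21, adjusted p = 0.0396). Ybx1, an RNA-binding protein of transport and stress granules, read 12.67, 13.45 and 13.28, against 12.21, 12.34 and 12.27, and was 1.81-fold higher. Gap43, a growth cone protein whose mRNA is carried to axons, read 10.44, 10.73 and 10.44, against 9.59, 9.43 and 8.92. Its groups did not overlap, and it passed on the common rank scale (2.08, adjusted p = 0.0181) and not on the deposited scale (1.23, adjusted p = 0.0914).

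Cytoskeletal genes changed direction with the scale. Of 52 members 2 rose (Actb and Tmsb10, 3.85% beside 4.37% of all genes) and 5 fell (9.62% beside 5.59%), with a median of -0.21 on the common rank scale. On all somatodendritic arrays 51 of the 52 were above background, so a larger part of them than of all genes was open to a fall. Tuba1a, the main alpha-tubulin of growing neurons, read 14.57, 14.46 and 14.44 in axons, against 14.75 on each of the 3 somatodendritic arrays. That was the highest value of any gene there, so Tuba1a was at the ceiling and its difference has no direction here. Dpysl2, also called CRMP2, which binds tubulin dimers, read 11.78, 11.38 and 11.47, against 13.28, 13.56 and 13.38, and was 3.64-fold lower (-1.53, SE 0.40, adjusted p = 0.0202). Map2, the classic dendritic microtubule protein, read 11.23, 11.79 and 11.31, against 12.46, 12.43 and 12.44. Its groups did not overlap, but it fell on the deposited scale only (adjusted p = 0.00561), with -0.50 (adjusted p = 0.12) on the common rank scale. With each array centred and scaled, 17 members were higher and 1 lower and the median turned to 0.92. Dpysl2 and Map2 then read higher in axons, at 0.23 and 0.94, and the second probe set of Dpysl2 differed by 0.56.

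Among 34 kinesin, dynein and dynactin genes 4 rose (11.8%, beside 4.37% of all genes) and 5 fell (14.7%, beside 5.59%), with a median of -0.15. With each array centred and scaled 13 were higher and 2 lower (median 0.61), and with only the 6 empty vector arrays in the fit 3 rose and 0 fell. The rises included subunits of the dynein and dynactin complexes, which carry cargo back to the cell body. Dync1h1, the heavy chain, read 10.92, 11.30 and 11.17 in axons, against 10.13, 10.30 and 10.15, and was 1.91-fold higher (1.74, SE 0.30, limma adjusted p = 0.00266). Actr1a, the filament subunit of dynactin, was 1.72-fold higher (1.71, SE 0.21), and Dynlrb1, a light chain, 1.69-fold higher (1.68, SE 0.27). The arrays of each were separate. Dynll1, another light chain, was 2.23-fold lower (-0.85, SE 0.22, adjusted p = 0.0197), and read 0.99 higher with each array centred and scaled. Kif1a, a motor of synaptic vesicle precursors, also rose (1.69, SE 0.44), and its relative Kif1b was 2.77-fold lower (-1.03, SE 0.32), but read 0.51 higher with each array centred and scaled, and 5 of its 6 other probe sets differed by 0.07 to 1.21.

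RNAs known from the nucleus were also read on the axonal arrays. Of 13 measured members of a list of long noncoding RNAs, most of them known to stay in the nucleus, 1 rose (Mirg), which is 7.69% beside 4.37% of all genes, and 0 fell. On the common rank scale 2 were higher and 0 lower past the threshold, 11 of the 13 differences were above 0, and the median was 0.56. Meg3, an imprinted noncoding RNA, read 13.06, 13.68 and 13.30 in axons, against 12.70, 12.86 and 12.48. Its groups did not overlap, but neither scale passed with the chosen probe set (0.87, limma adjusted p = 0.0906). Other probe sets of Meg3 differed by -0.27 to 2.23 on the common rank scale. Those at 2.20 (limma adjusted p = 0.0301) and 2.23 (adjusted p = 0.0183) passed there. Malat1, a speckle RNA named here after its values were seen, read 9.26, 11.78 and 10.70, against 10.31, 10.44 and 10.20, with overlapping groups. On the deposited scale its difference was 0.26, and -0.34 without axonal replicate 2. On the common rank scale the probe sets of Malat1 differed by 0.22 to 1.18, and none passed. Spliceosome and splicing genes gave 5 rises (8.33%, beside 4.37% of all genes) and 2 falls (3.33%, beside 5.59%) of 60. Their median of -0.17 turned to 0.44 with each array centred and scaled. Srsf2, a splicing activator, read 7.17, 6.13 and 7.54, against 10.60, 10.89 and 10.70, and was at least 11.1-fold lower (-3.12, SE 0.36, adjusted p = 0.000131), although 1 of its 4 probe sets differed by 0.91. Prpf19, the ubiquitin ligase of the spliceosome, was 1.66-fold higher (0.97, SE 0.18, adjusted p = 0.00412). Ptbp1, a repressor of neuronal exons, rose with the chosen probe set (1.48, SE 0.26) and not with the median over its probe sets (-1.25 on the deposited scale).

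Of 49 transcription factors and chromatin genes of postmitotic neurons, 3 rose (6.12%, beside 4.37% of all genes) and 6 fell (12.2%, beside 5.59%). The falls were Foxp2, Myt1l, Tcf4, Mef2c, Bcl11a and Meis2. Foxp2, a forkhead repressor of spinal interneurons among other cells, read 5.42, 5.38 and 5.33 in axons, against 9.03, 8.04 and 9.33, and was at least 4.05-fold lower (-3.13, SE 0.46, limma adjusted p = 0.000958). Its 5 other probe sets disagreed, at -4.23, -0.69, 0.08, 0.17 and 0.79, the last with adjusted p = 0.0475. Other probe sets of Bcl11a (0.68, adjusted p = 0.0495) and Tcf4 (0.76, adjusted p = 0.0424) also passed in the opposite direction. Isl2, a motoneuron homeodomain factor, read 7.18, 7.16 and 6.73, against 5.87, 5.92 and 5.92, and was at least 1.79-fold higher (1.27, SE 0.20, adjusted p = 0.00152). No somatodendritic array exceeded background for Isl2, and its axonal values lay close to background. Background was higher on the axonal arrays (6.86, 7.06 and 6.43) than on the somatodendritic arrays (6.02, 6.20 and 6.33). The fold of Isl2 does not allow for that. Among 37 RNA-binding proteins of axonal transport, 2 rose (Ybx1 and Fxr2, 5.41%) and 1 fell (2.70%), near the shares of all genes. Fxr1, a relative of the fragile X protein, fell to 6.08, 4.30 and 6.47, against 9.45, 9.12 and 9.34, at least 5.69-fold lower (-3.28, SE 0.91, adjusted p = 0.0254). Its relative Fxr2 was at least 1.65-fold higher (0.97, SE 0.28, adjusted p = 0.0307), close to background and with the same limit as Isl2. Of 14 measured members of the SMN complex and its partners, which assemble the particles of the spliceosome, Gemin7 rose (0.90, SE 0.20, adjusted p = 0.00895) while Gemin2 (-1.81, SE 0.35, adjusted p = 0.00554) and Lsm10 (-1.30, SE 0.43, adjusted p = 0.0481) fell, and the axonal group was above background for 4 of them. The 1 rise is 7.14% and the 2 falls are 14.3% of this list.

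Genes of the synapse, of guidance and of the secretory pathway gave shares of falls between 4.00% and 10.3%. Of 57 presynaptic genes 2 rose and 4 fell (7.02%, beside 5.59% of all genes), with a median of -0.24 that turned to 0.15 with each array centred and scaled, when 11 were higher and 3 lower. Of 33 postsynaptic genes 0 rose and 2 fell (7 were higher on the common rank scale and 5 on the deposited scale), and of 25 mRNAs known from dendrites 0 rose and 1 fell (5 and 4 higher on the scales taken singly). Snap91, an adaptor of clathrin coats at the synapse, read 8.63, 8.58 and 9.64 in axons, against 12.14, 12.29 and 12.29, and was 9.77-fold lower (-2.54, SE 0.50, limma adjusted p = 0.00553). A second probe set of Snap91 differed by 0.18. Grm5, a metabotropic glutamate receptor of dendritic spines, read 4.97, 4.93 and 6.83, against 8.82, 9.23 and 9.02, and was at least 4.32-fold lower (-3.06, SE 0.59, adjusted p = 0.00539). Gphn, the scaffold of inhibitory synapses, was 4.54-fold lower (-1.29, SE 0.39, adjusted p = 0.0348), with other probe sets at -3.12 and 0.42. Ppfia3, a liprin of the active zone, was 2.22-fold higher (1.88, SE 0.37, adjusted p = 0.00575).

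Of 58 guidance and adhesion receptors 2 rose (3.45%, beside 4.37% of all genes) and 6 fell (10.3%, beside 5.59%). Among the falls were Robo1, a Slit receptor, and 3 Eph receptors. On all somatodendritic arrays 54 of the 58 were above background, against 10221 of 18191 genes. A larger part of them than of all genes was thus open to a fall. Sema5a, a semaphorin, read 6.42, 4.69 and 6.81 in axons, against 7.97, 8.23 and 8.15, and was at least 2.31-fold lower (-1.83, SE 0.45, limma adjusted p = 0.0156), whereas with the median over its 4 probe sets it differed by 0.27 on the deposited scale. Slit1, a Robo ligand, rose (1.33, SE 0.34, adjusted p = 0.0176), whereas its second probe set differed by -1.37. Of 51 genes of the endoplasmic reticulum and secretory pathway 0 rose by the rule (5 were higher on the common rank scale and 2 on the deposited scale). In this list 5 fell (9.80%, beside 5.59% of all genes), and 49 of the 51 were above background on all somatodendritic arrays. The median of -0.24 turned to 0.15 with each array centred and scaled. Copb1, a coat protein of Golgi vesicles, read 7.98, 5.44 and 7.34, against 10.06, 10.01 and 10.32, and was at least 6.36-fold lower (-2.51, SE 0.57, adjusted p = 0.0112). Sec61a2, a channel subunit of the translocon, was at least 8.98-fold lower (-3.01, SE 0.74, adjusted p = 0.0153), and Arf4, a GTPase of the Golgi, 4.74-fold lower (-1.32, SE 0.37, adjusted p = 0.0257), with other probe sets of Arf4 at -1.05 to 0.27. Among 27 cytosolic chaperones the prefoldin subunits, which hand unfolded actin and tubulin to the chaperonin, differed in direction. Pfdn5 (2.12, SE 0.21, adjusted p = 4.11e-05) and Pfdn1 (1.29, SE 0.27, adjusted p = 0.00793) rose, and Pfdn4 was 3.96-fold lower (-1.20, SE 0.31, adjusted p = 0.0187).

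**Figure D2:**
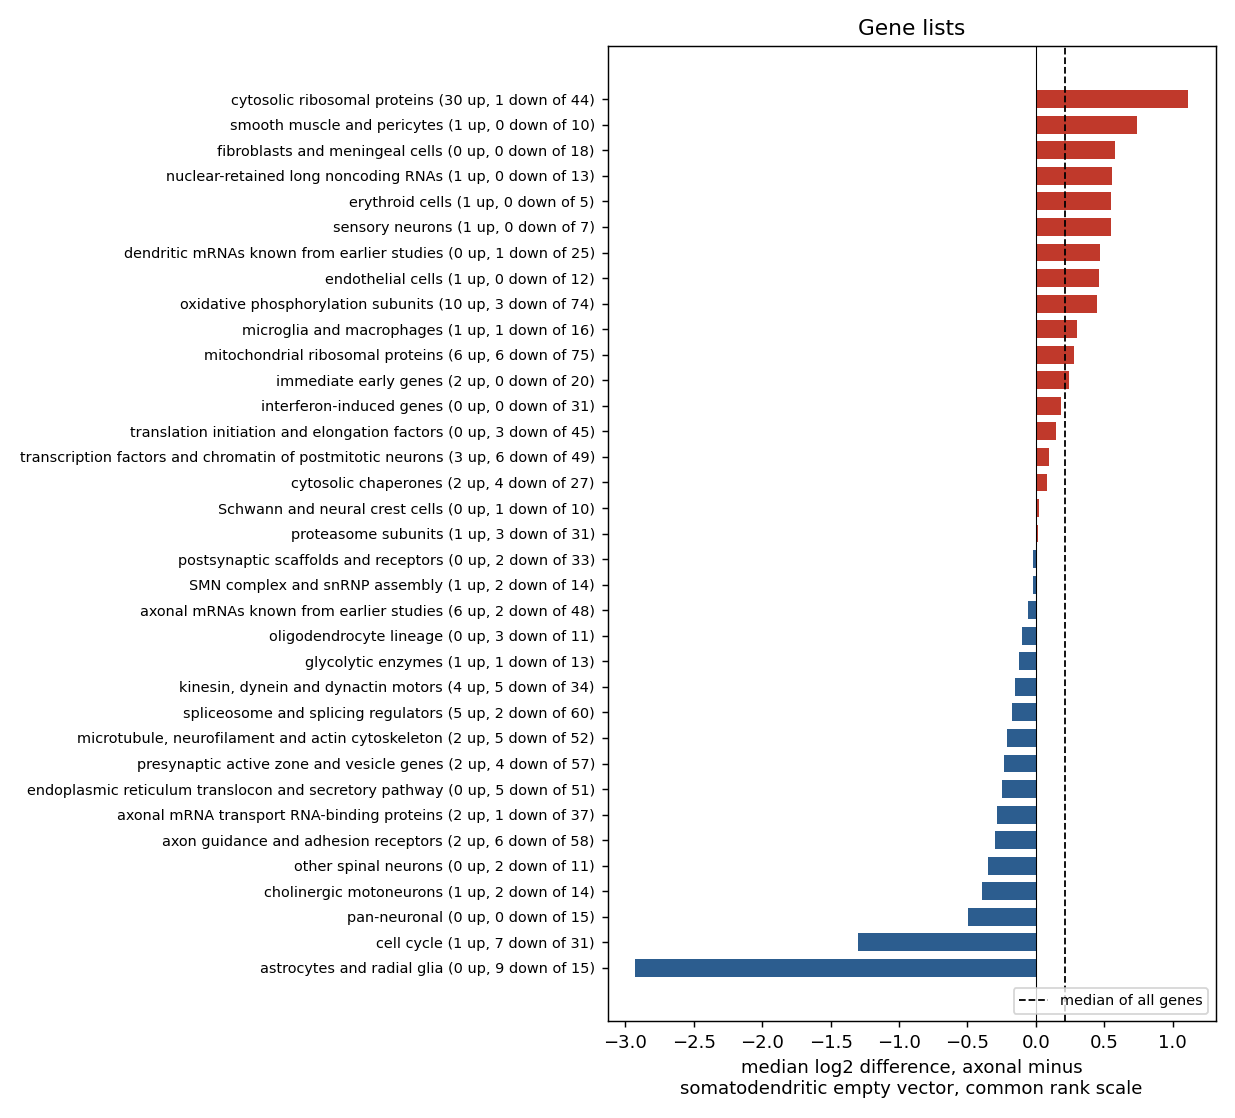
Median log2 difference, axonal minus somatodendritic empty vector arrays, on the common rank scale, for each gene list (bars, red above 0 and blue below), with the count of members that rose (up) and fell (down) beside each name and the median of all genes as a dashed line. Cytosolic ribosomal proteins have the highest median, 1.11, and astrocyte and radial glia genes the lowest, -2.93.

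The markers of cell types gave the other large shift. Of 15 genes of astrocytes and radial glia 9 fell in axons (60.0%) and 0 rose by the rule (0 were higher on the deposited scale and 1 on the common rank scale), and their median was -2.93 on the common rank scale and -3.18 on the deposited scale. The axonal group was above background for 4 of them and the somatodendritic group for 14. Their mean level was 6.49, 7.30 and 6.80 on the axonal arrays, against 9.95, 9.91 and 9.81 on the somatodendritic arrays. In RNA of whole compartments, fewer cells of a type and less RNA per cell cannot be told apart. Between 5 and 11 members fell under the alternatives in which any gene was called, and 0 with the replicate block over the 6 empty vector arrays, with 6 without somatodendritic replicate 1 or 3.

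Aqp4, the water channel of astrocyte endfeet, read 3.90, 4.45 and 2.94 in axons, against 9.78, 10.18 and 9.47, and was at least 8.15-fold lower (-5.71, SE 1.08, limma adjusted p = 0.00462). Fabp7, a fatty acid binding protein of radial glia, read 5.46, 9.82 and 9.54, against 13.69, 13.86 and 13.70, and was at least 32.3-fold lower (-5.18, SE 0.96, adjusted p = 0.00401). It exceeded background on 2 axonal arrays. Gfap, the astrocyte intermediate filament protein, read 4.27, 5.07 and 4.32, against 8.79, 8.82 and 7.79, and was at least 3.21-fold lower (-3.72, SE 0.32, adjusted p = 2.01e-05). Gja1, the connexin of astrocytes, did not follow, with 8.07, 11.27 and 12.80 in axons, against 11.95, 12.19 and 11.84 (-0.74, adjusted p = 0.799). All 3 axonal arrays exceeded background for Gja1, and its groups overlapped. For Aqp4, Gfap and Slc4a4, other probe sets of the gene differed by less, at -0.43 to -0.26 for Aqp4, at -0.38 and 0.49 for Gfap and at -0.64 to 0.56 for Slc4a4.

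Of 11 oligodendrocyte lineage genes 0 rose and 3 fell (27.3%, beside 5.59% of all genes), and those 3 are markers of precursors. Olig1 read 6.32, 7.56 and 6.03 in axons, against 12.25, 11.96 and 11.90, and fell (-5.00, SE 0.72, limma adjusted p = 0.000824). Olig2 was at least 3.17-fold lower (-4.06, SE 0.59, adjusted p = 0.00091), and Pdgfra at least 21.5-fold lower (-5.07, SE 0.62, adjusted p = 0.000218), with other probe sets of Pdgfra at -1.03 and 0.21. Of 31 cell cycle genes 1 rose (3.23%, beside 4.37% of all genes) and 7 fell (22.6%, beside 5.59%), with a median of -1.30. Their mean level was 5.74, 6.30 and 7.39 on the axonal arrays, against 7.95, 8.06 and 7.71, and axonal replicate 3 was the highest of the axonal arrays with 22 members above background. There were 13 falls without axonal replicate 3, 3 without axonal replicate 1 or somatodendritic replicate 1 or 2, and 4 without axonal replicate 2 or somatodendritic replicate 3. Pcna, the sliding clamp of DNA replication, read 9.19, 8.50 and 10.72, against 12.28, 12.20 and 12.16, and was 6.70-fold lower (-2.02, SE 0.42, adjusted p = 0.0073). Ube2c, a ubiquitin conjugase of mitosis, was at least 2.07-fold lower (-2.52, SE 0.40, adjusted p = 0.00183).

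Neuronal markers were present on both sides. All 15 pan-neuronal genes were above background in the somatodendritic group and 12 in the axonal group, and 0 rose or fell by the rule (3 were lower on the deposited scale and 1 higher on the common rank scale). Their median was -0.50 on the common rank scale, where 11 differences were below 0 and 4 above, and -1.10 on the deposited scale. For all genes these medians were 0.21 and 0.17. With each array centred and scaled the median was -0.0004, beside 0.17 for all genes. Stmn2, a tubulin-binding protein of growing neurites, read 9.96, 11.01 and 9.42 in axons, against 11.81, 11.61 and 11.79. It was lower on the deposited scale (-1.61, limma adjusted p = 0.00229) and not past the threshold on the common rank scale (-0.86, adjusted p = 0.0518). Its second probe set went the other way, at 1.53 (adjusted p = 0.0162), so Stmn2 has no settled direction. Nefl, the light neurofilament chain, read 12.54, 10.58 and 12.43, against 13.00, 12.95 and 12.91 (-0.75, adjusted p = 0.321). Defining genes of the cholinergic phenotype were dim. Chat, the enzyme that makes acetylcholine, read 5.96, 5.68 and 5.70, against 5.55, 5.76 and 5.78, and exceeded background on none of the 6 arrays, and neither did Mnx1, Slc18a3 or Slc5a7. Of 14 cholinergic motoneuron markers the axonal group was above background for 3 and the somatodendritic group for 6. Of 11 markers of other spinal neurons 0 rose and 2 fell by the rule (18.2%, beside 5.59% of all genes). The 2 that fell were Gad2 and Slc6a5, markers of GABA and glycine neurons, which were above background on all somatodendritic arrays. On the common rank scale 2 members of the list, Tlx3 and Lmx1b, were higher in axons. Gad1 and Slc32a1 of the same list were not called. Gad2 read 7.81, 6.14 and 8.56, against 10.48, 10.64 and 10.61, and was at least 6.80-fold lower (-2.30, SE 0.59, adjusted p = 0.0187). The second probe set of Slc6a5 differed by 0.74.

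**Figure D3:**
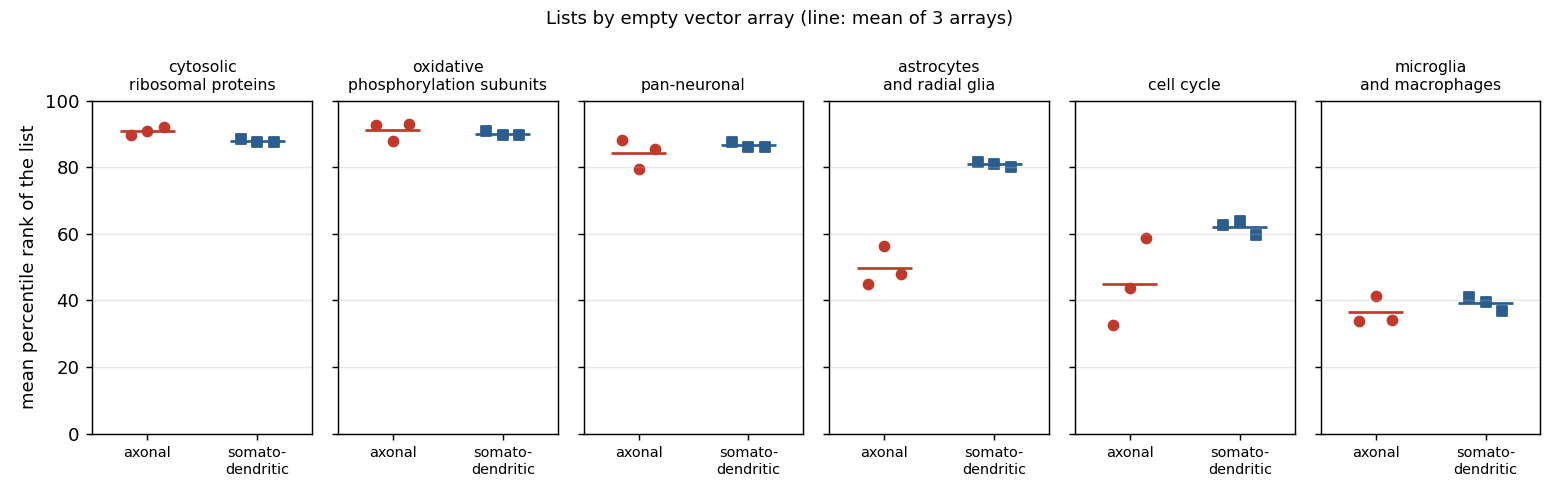
Mean percentile rank within the array (vertical axis, 0 to 100, over all measured genes) of 6 gene lists on each empty vector array, axonal arrays as red circles on the left and somatodendritic arrays as blue squares on the right, with a line at the mean of each group's 3 arrays. Astrocyte and radial glia genes lie at 44.9, 56.3 and 48.0 on the axonal arrays and at 81.5, 81.0 and 80.1 on the somatodendritic arrays, while microglial genes overlap.

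Microglial RNA was low in both empty vector compartments. Of 16 microglia and macrophage genes 1 was above background in the axonal and 6 in the somatodendritic group. Their mean level was 5.84, 6.15 and 5.86 on the axonal and 6.28, 6.16 and 5.95 on the somatodendritic empty vector arrays. In wild-type cultures it was 9.88, 7.42 and 6.92 on the axonal arrays and 7.75, 7.73 and 7.68 on the somatodendritic arrays. By the rule Ctss, a lysosomal protease, fell (-4.26, SE 0.97, limma adjusted p = 0.0113), and Trem2, a lipid receptor, rose (1.60, SE 0.39, adjusted p = 0.0147), at axonal values of 7.76, 8.52 and 6.93, against 6.52, 6.53 and 6.43. Most markers of other cell types were not above background in axons. The axonal group was above background for 5 of 18 fibroblast genes (0 called on both scales, and 3 higher on the deposited and 2 on the common rank scale), for 1 of 10 smooth muscle and pericyte genes and for 2 of 12 endothelial genes. It was above background for 1 of 5 erythroid, 1 of 7 sensory neuron and 2 of 10 Schwann cell genes. The called members were Des, Egfl7, Slc4a1 and Runx1, each higher in axons, and Fabp7, which the Schwann cell list shares with the astrocyte list. The part of other cell types in the results was not tested. Interferon-induced genes gave 0 calls by the rule among 31, with 1 higher and 2 lower on the deposited scale and 1 lower on the common rank scale. Of 20 immediate early genes, Ier2 (1.77, SE 0.39, adjusted p = 0.00968) and Egr3 rose, the last of these not with its second probe set (-1.30, adjusted p = 0.029).

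**Figure D4:**
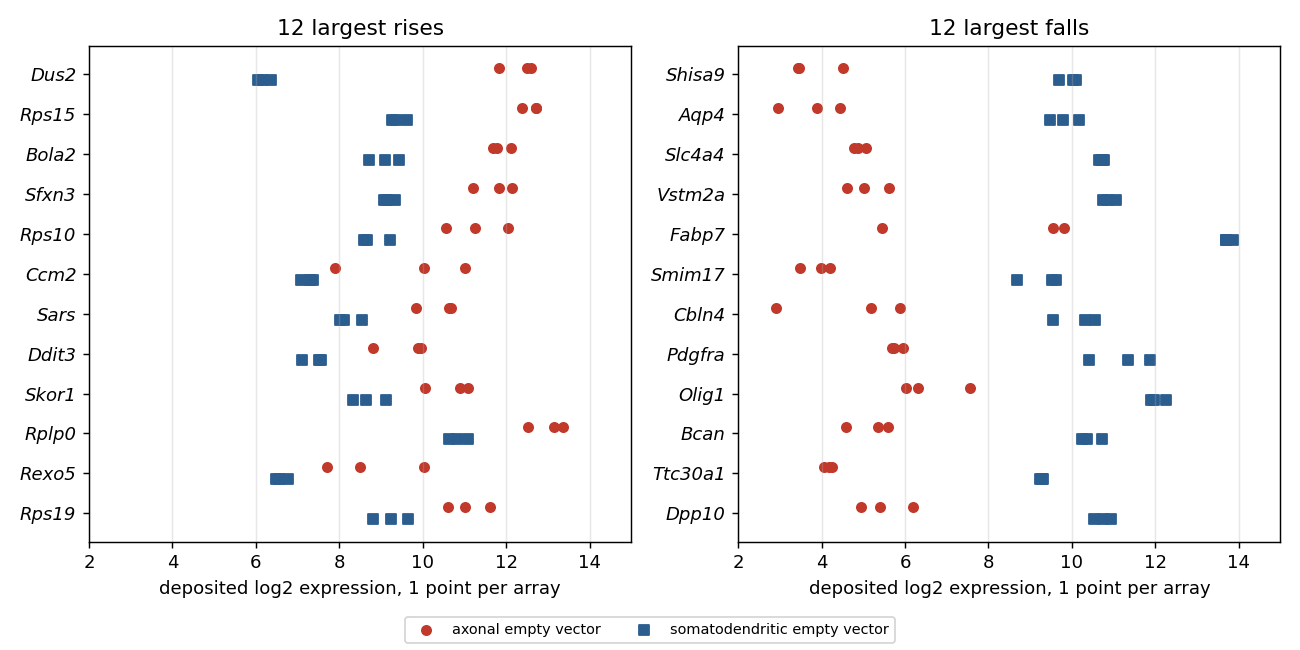
Deposited log2 expression (horizontal axis) on each empty vector array of the 12 genes that rose most and the 12 that fell most by the common rank scale, axonal arrays as red circles drawn above the somatodendritic arrays as blue squares. No gene shown has overlapping groups, which the choice of genes required.

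The 12 genes that rose most included the ribosomal proteins Rps15, Rps10, Rplp0 and Rps19, and Sars and Ddit3, a tRNA synthetase and a transcription factor of the integrated stress response. Dus2, which modifies uridines of transfer RNA, was highest by difference, at 12.49, 12.60 and 11.82 in axons, against 6.04, 6.16 and 6.36, at least 68.7-fold higher (6.27, SE 0.22, limma adjusted p = 9.47e-10). Its second probe set differed by 0.00, so this rise belongs to 1 probe set only. Bola2, a partner of glutaredoxin in iron handling, read 11.67, 12.10 and 11.78, against 9.43, 9.10 and 8.71, and was 6.84-fold higher, and its 4 other probe sets differed by 0.78 to 2.36. Sfxn3, a sideroflexin of the inner mitochondrial membrane, read 11.84, 12.14 and 11.20, against 9.07, 9.33 and 9.15, and was 5.83-fold higher (3.23, SE 0.39, adjusted p = 0.000223). Skor1, a transcriptional corepressor of spinal interneurons, read 11.10, 10.89 and 10.05, against 8.63, 9.13 and 8.34, and was 3.94-fold higher. Ccm2, a scaffold protein, spread widely in axons, at 7.91, 11.00 and 10.03, against 7.30, 7.37 and 7.09. Rexo5, an RNA exonuclease, was 4.43-fold higher in empty vector cultures, and its wild-type difference was -0.12. The difference between the cultures was not called for Rexo5 on the deposited scale. The 3 other probe sets of Rexo5 differed by -0.15, 0.52 and 0.57.

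The genes that fell most included several known from glia or synapses, and none of the 12 had an axonal group above background on all 3 arrays. Besides Aqp4, Fabp7, Olig1 and Pdgfra they included Slc4a4, a bicarbonate cotransporter, at 4.78, 4.86 and 5.06 in axons, against 10.77, 10.66 and 10.72, at least 15.3-fold lower (-5.50, SE 1.17, limma adjusted p = 0.00818). Vstm2a, a secreted immunoglobulin domain protein, was at least 17.2-fold lower, Cbln4, a synaptic organiser, at least 10.2-fold, and Dpp10, an auxiliary subunit of potassium channels, at least 15.6-fold lower. Ttc30a1, a subunit of intraflagellar transport in cilia, read 4.24, 4.17 and 4.06, against 9.28, 9.22 and 9.30, at least 5.60-fold lower (-4.85, SE 0.28, adjusted p = 3.67e-07). Shisa9, an auxiliary subunit of AMPA receptors, and Bcan, a matrix proteoglycan, fell with the chosen probe set only. Without probe sets of the cross-hybridising kinds they differed on the deposited scale by 0.78 for Shisa9 and 0.27 for Bcan. Smim17, a small membrane protein, was at least 5.65-fold lower.

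Genes that fell had longer spans in the genome than genes that rose, which is a description without a test. The span of a gene in RefSeq had a median of 11.9 kb for the rises (quartiles 4.74 and 27.0), 34.3 kb for the falls (15.6 and 90.2) and 20.3 kb for all genes (7.95 and 50.5).

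The wild-type pair of groups, which shares no array with the empty vector pair, gave 371 rises (2.04%) and 588 falls (3.23%) by the same rule. Of the empty vector rises 192 were also called in wild-type cultures, which is 24.2% of the empty vector and 51.8% of the wild-type rises. Of the falls 352 were shared, 34.6% of the empty vector and 59.9% of the wild-type falls, and 0 genes were called in opposite directions. On the common rank scale 789 of the 795 rises and 956 of the 1017 falls had the same sign in wild-type cultures, and the differences correlated across genes at 0.73. Genes are not independent replicates, and both pairs were called in 1 fit with the same spread per gene, so this is a description. Cytosolic ribosomal proteins rose in 33 of 44 cases in wild-type cultures, with a median of 1.28 beside 1.11 in empty vector cultures. Oxidative phosphorylation genes rose in 25 of 74 cases (median 0.79, beside 0.45 in empty vector cultures), and astrocyte and radial glia genes fell in 3 of 15 (median -1.34, beside -2.93). The difference between cultures was called for 0 members of these lists by limma on either scale.

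Over all genes the compartment difference itself differed between empty vector and wild-type cultures for 5 genes on each scale (0.0275%). On the deposited scale 784 of 18191 genes had an unadjusted limma p under 0.05, a smaller share than the 0.05 that would pass if no gene differed. Vps13a, a lipid transfer protein at membrane contacts, overlapped between compartments in empty vector cultures, at 7.49, 9.21 and 8.18 in axons, against 8.11, 8.10 and 8.23. In wild-type cultures it read 3.93, 4.19 and 4.71 in axons, against 8.64, 8.78 and 8.23. Nr1d2, a nuclear receptor of the circadian clock, read 7.36, 8.34 and 7.33, against 8.67, 8.64 and 8.68, in empty vector cultures, and 5.30, 5.03 and 5.50, against 8.79, 9.01 and 8.73, in wild-type cultures. Mto1, an enzyme that modifies mitochondrial transfer RNA, went the other way, at 7.35, 5.98 and 6.47, against 9.00, 9.14 and 9.03, in empty vector cultures and 8.90, 9.42 and 8.98, against 9.01, 8.89 and 8.99, in wild-type cultures. Other probe sets of Vps13a, Nr1d2 and Mto1 differed between the empty vector compartments by -0.82 to 0.78, 0.02 and -0.01. Their wild-type differences were not examined.

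**Figure D5:**
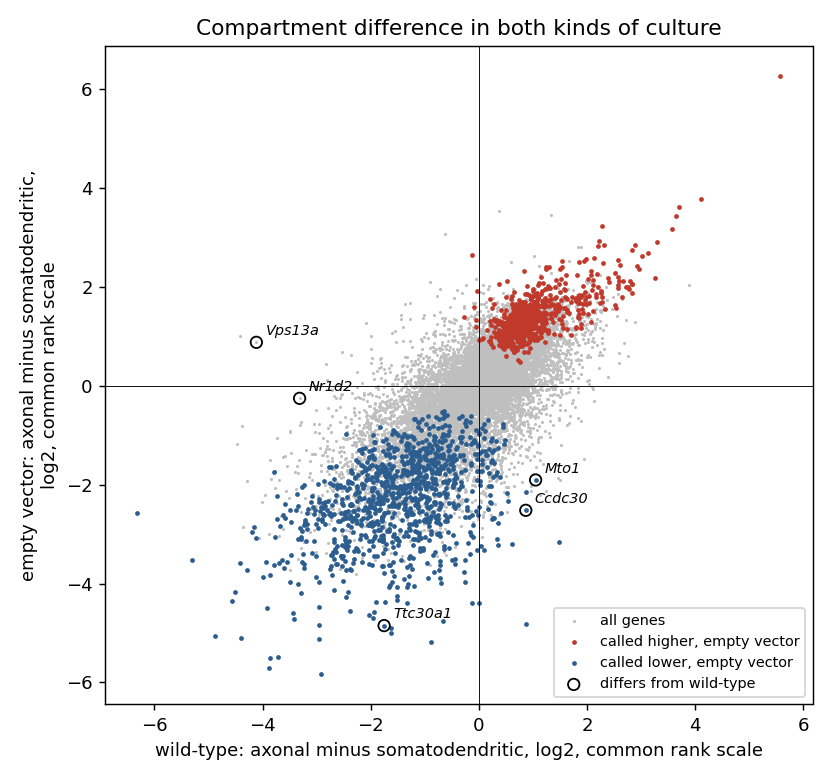
Log2 difference, axonal minus somatodendritic, on the common rank scale for each gene (points), in empty vector cultures (vertical axis) against wild-type cultures (horizontal axis). The 795 genes that rose in empty vector axons are red, the 1017 that fell are blue, and circles mark the 5 genes whose differences were unequal between the cultures. Most coloured points lie in the quadrants of equal sign.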

How the data were processed

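Values were the deposited log2 expression values per probe set of Affymetrix Mouse430_2 arrays. The authors' software for background correction and summarisation is not stated in the labels. In the deposited log2 values, sorted values differed by at most 0.0125 between axonal and 0.0048 between somatodendritic arrays, so each compartment had been brought to 1 distribution of its own. Of 45101 probe sets, 34945 carried a single gene symbol, 932 several, 9160 none and 64 were controls, and 11 had missing values. Each gene was represented by its probe set of highest average over 18 arrays, giving 18191 genes. No array was dropped and no value imputed.

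A limma fit (version 3.58.1, R 4.3.3) with 1 mean per group over all 18 arrays was made on the deposited values and after quantile normalisation of all arrays together. P-values were Benjamini-Hochberg adjusted over all genes. The code was tested on simulated data. With 3 arrays against 3, an exact permutation test of 1 gene cannot go below p = 0.1. The number of arrays limits the precision.

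"At least" folds were given where the lower group was not above background on all 3 arrays. Values of the lower group under background were raised to the background of their own array. For rises these folds are bounds on the deposited scale only, and do not allow for the higher background of the axonal arrays. Named genes were the 12 largest rises and 12 largest falls among called genes with groups that do not overlap, the 10 of highest axonal rank, up to 4 members of each list with the lowest p and 2 with the highest axonal mean, and the genes unequal between cultures. Genes outside this rule were chosen after their values were seen: Bcl11a, Cdc42, Chac1, Chat, Cox4i1, Eif1ax, Eif3e, Gphn, Kif1a, Kif1b, Malat1, Mef2c, Meis2, Myt1l, Ppp1r15a, Prdx2, Robo1, Rps25, Slc18a3, Slc5a7 and Tcf4. The comparison, lists and rule were chosen with earlier results of these data known. Alternatives changed the arrays in the fit, array weights, scaling, probe set, filter on dim genes, prior and a replicate block.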

Additional observations from a re-analysis of the deposited data

Results flagged for a closer look

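For 5 genes the compartment difference was unequal between empty vector and wild-type cultures by limma's interaction test on the deposited scale, given here as the empty vector minus the wild-type difference. It was 4.42 for Vps13a (SE 0.52, adjusted p = 0.00951), 2.58 for Nr1d2 (SE 0.33, adjusted p = 0.00978), -2.60 for Mto1 (SE 0.40, adjusted p = 0.0392), -2.76 for Ttc30a1 (SE 0.34, adjusted p = 0.00951) and -3.06 for Ccdc30 (SE 0.41, adjusted p = 0.0119).

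Ccdc30, a coiled-coil protein, read 4.63, 4.10 and 4.68 in empty vector axons, against 7.07, 6.77 and 6.81 in the somatodendritic compartment. In wild-type cultures it read 6.79, 7.82 and 6.83 in axons, against 6.73, 5.89 and 6.88, with overlapping groups. Of 7 probe sets of Ccdc30 the 6 others differed between the empty vector compartments by -0.27 to 0.67, against -2.52 for this one. The wild-type differences of those 6 were not examined. Ttc30a1 was lower in axons of both kinds of culture, and its wild-type axonal arrays read 7.20, 6.99 and 6.78, against 9.26, 9.40 and 9.37. In Vps13a the wild-type axonal arrays were the low ones, and in Mto1 the empty vector axonal arrays were.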

How the results depend on the processing

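By count of genes called, the settings moved as follows. With only the 6 empty vector arrays, 1988 genes were higher on the deposited and 518 on the common rank scale, 723 were lower on the common rank scale, and 245 rose and 657 fell by the rule. A log2 difference of at least 1 left 1151 higher on the deposited scale, 1401 on the common rank scale and 334 rises. Among genes above background, 655 were higher on the deposited and 1306 on the common rank scale, fewer genes being tested. Centred and scaled arrays gave 2222 higher and 1190 lower, percentile ranks 2798 and 981, and array weights 1528 falls. Leaving out 1 array at a time gave 2395 to 4782 higher and 2119 to 3361 lower on the deposited scale, 636 to 3499 and 411 to 1503 on the common rank scale, and 296 to 1143 rises and 368 to 1348 falls. The genes unequal between cultures numbered 3 to 27 without 1 array and 1 with the median over probe sets.

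Deviations of same-numbered axonal and somatodendritic arrays correlated at 0.07, 0.08 and -0.01, too low to treat the numbers as pairs, which does not show that no culture was shared. With the replicate block over the 12 control arrays, 628 genes rose, 906 fell and 1 was unequal between cultures. With the replicate block over the 6 empty vector arrays, 97 genes were higher and 1479 lower on the deposited scale, and 0 either way on the common rank scale and by the rule, with few residual degrees of freedom.

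Some single genes changed sign on the deposited scale, and the cause was not tested. With arrays centred and scaled these were Tuba1a 2.61 (at the ceiling of the somatodendritic arrays), Uqcrb 2.78, Cdc42 1.25, Eif3e 1.23, Prdx2 1.19, Dynll1 0.99, Nefl 0.98, Map2 0.94, Kif1b 0.51, Gja1 0.45 and Dpysl2 0.23. Without cross-hybridising probe sets they were Shisa9 0.78, Gfap 0.65, Bcan 0.27 and Rps20 -0.22. With the median over probe sets they were Ptbp1 -1.25, Slit1 -0.43, Sema5a 0.27, Myt1l 0.0921 and Egr3 -0.0636. Array weights gave Malat1 -0.21, Vps13a -0.20 and Uqcrb 0.0345. Leaving out 1 array at a time gave -2.33 to 0.0372 for Gja1 (the last without axonal replicate 1), and -0.34 to 0.92 for Malat1, -0.31 to 0.55 for Vps13a and -0.18 to 0.0513 for Uqcrb, whose signs turned without axonal replicate 2. Signal over background limits all folds of genes that were dim in axons.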

Other observations

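Genes of the integrated stress response, in which phosphorylation of eIF2 raises translation of Atf4, were among the largest rises. This group was put together after the values were seen, so its count is no support. Of 30 listed targets of Atf4 and of its partner CHOP, 7 rose by the rule (23.3%, beside 4.37% of all genes) and 0 fell. On the deposited scale 2 were lower and on the common rank scale 0, and the median was 0.55, beside 0.21 for all genes. In wild-type cultures 2 rose and 0 fell.

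Atf4 itself, whose mRNA is also known from axons, read 12.08, 12.16 and 12.02 in empty vector axons, against 10.03, 10.61 and 9.92, and was 3.72-fold higher (2.58, SE 0.34, limma adjusted p = 0.000444). Ddit3, which encodes CHOP, read 9.95, 9.89 and 8.80, against 7.50, 7.55 and 7.12, and was 4.45-fold higher (2.82, SE 0.70, adjusted p = 0.0167). Sars, a seryl-tRNA synthetase, read 10.63, 9.84 and 10.68, against 8.53, 8.12 and 8.02, and was 4.48-fold higher (2.90, SE 0.57, adjusted p = 0.00565). No array overlapped between the compartments for these genes. Chac1, which breaks down glutathione, was 2.77-fold higher, and Shmt2, a mitochondrial enzyme of folate metabolism, 2.09-fold higher. Ppp1r15a, which directs the phosphatase of eIF2, was 1.98-fold higher, and Cebpb at least 2.09-fold higher.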
